A study of Mus musculus with 37 samples.

Results

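The resting transcriptome of mouse eosinophils was set against that of 4 other myeloid cell types taken without any treatment, namely mast cells, macrophages, neutrophils and dendritic cells of the spleen (sDCs). Each untreated cell type had 2 RNA-seq samples, so 10 of the 37 samples of the series entered the comparison, and the deposited table gives 1 mean of the 2 samples for each group. A gene was called eosinophil-high where its eosinophil value was at least 2-fold above the highest of the other 4 on the log2(value + 1) scale, and eosinophil-low where it was at least 2-fold below the lowest of them. Of 6509 genes in the table, 6470 had a value of 10 or more in at least 1 of the 5 untreated groups, and of these 193 were eosinophil-high and 368 were eosinophil-low.

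All cells came from C57Bl6cJ mice. The eosinophils and the mast cells were grown in culture from bone marrow, the macrophages were adherent peritoneal exudate cells elicited with thioglycollate, the neutrophils were isolated from bone marrow of pooled mice and kept overnight with GM-CSF, and the sDCs were enriched from spleen with magnetic beads. The eosinophils are therefore a culture model, and cell type goes together with tissue of origin and with time in culture, which cannot be told apart. The LPS groups used below received 100 ng/ml LPS (bacterial lipopolysaccharide) for 4 h and were harvested later than the untreated cells, so LPS and the longer culture cannot be told apart either. One untreated macrophage sample was taken over by the study from an earlier dataset. The values are normalised tag counts per transcript, summed here per gene. They are not divided by transcript length, so they compare cell types for 1 gene and not genes with each other. With 1 mean per group there is no replicate error and no test, and every difference below is a difference between group means. In bulk samples, fewer cells of a type and less RNA per cell cannot be told apart.

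Eosinophils are granulocytes of allergic and antiparasite immunity. They arise in bone marrow under IL-5, follow eotaxins into tissue through the chemokine receptor CCR3, and carry granules that hold eosinophil peroxidase and toxic cationic proteins. The transcription factor GATA-1, which binds the motif GATA with a flanking A, is needed for their development. Among the promoters of eosinophil genes, those of Epx, Ccr3 and Il13 are shown, because these genes encode the granule peroxidase, the eotaxin receptor and a type 2 cytokine that were all eosinophil-high. They are the 250 bases before the RefSeq start site, 5′ to 3′ along the gene (RefSeq, GRCm38.p6), at chr11:87875537-87875786 on the minus strand for Epx, chr9:124021721-124021970 on the plus strand for Ccr3 and chr11:53634703-53634952 on the minus strand for Il13. Capitals mark any AGATAA or TGATAA on either strand.
Epx: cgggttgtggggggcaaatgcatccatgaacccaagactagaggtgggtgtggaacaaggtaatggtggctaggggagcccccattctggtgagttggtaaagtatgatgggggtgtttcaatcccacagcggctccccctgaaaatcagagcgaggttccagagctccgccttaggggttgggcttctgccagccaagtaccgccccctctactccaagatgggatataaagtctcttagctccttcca
Ccr3: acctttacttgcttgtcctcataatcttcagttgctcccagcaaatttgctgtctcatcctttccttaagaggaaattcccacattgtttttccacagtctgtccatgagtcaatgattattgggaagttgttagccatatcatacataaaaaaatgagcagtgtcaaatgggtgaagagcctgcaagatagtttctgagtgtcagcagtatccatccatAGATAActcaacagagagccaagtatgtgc
Il13: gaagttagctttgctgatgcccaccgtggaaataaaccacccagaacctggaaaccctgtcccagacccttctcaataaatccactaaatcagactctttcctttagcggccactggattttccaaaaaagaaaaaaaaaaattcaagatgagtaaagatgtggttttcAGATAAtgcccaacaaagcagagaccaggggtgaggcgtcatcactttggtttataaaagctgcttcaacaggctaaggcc
The Ccr3 window held 1 match, which began 30 bases before the start site, and the Il13 window held 1, beginning 81 bases before it. The Epx window held none. Such a match is common, since 16.6% of all 32851 RefSeq promoter windows of this length held at least 1. Among the 6709 windows of the genes compared here it was 10.4%. Only 138 of the 193 eosinophil-high genes (71.5%) had a RefSeq promoter entry, against 80.6% of all genes compared, so no share is given for the group.

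The label of the cells was first checked against their markers. Ccr3 (chromosome 9, 123936703 to 123946421, plus strand, NCBIM37), the eotaxin receptor gene, was 45989.5 in untreated eosinophils, 971 in neutrophils, 963 in mast cells, 517 in sDCs and 50 in macrophages. Eosinophils therefore stood 5.56 above the next cell type on the log2 scale. Epx (chromosome 11, 87677502 to 87689038, minus strand), which encodes eosinophil peroxidase, was 185338 in eosinophils, 19128.5 in neutrophils, 25 in mast cells, 980.5 in sDCs and 0 in macrophages. The eosinophil value of Epx is the ceiling of the table, the same top value that the normalisation gave to every column, so its difference of 3.28 from neutrophils is limited by that ceiling. Alox15, the 12/15-lipoxygenase that makes lipid mediators in eosinophils, was 77214.5 in eosinophils against 7628 in neutrophils and at most 291 elsewhere. Epx was the only one of 17 listed granule protein genes with a row in the table used here.

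The other surface markers were shared to differing degrees. Emr4, an adhesion G protein-coupled receptor gene, was 5906 in eosinophils and 1378.5 in sDCs, the next cell type (log2 difference 2.10). Emr1, which encodes F4/80, was 14338.5 in eosinophils and 21201 in macrophages. Il1rl1, the IL-33 receptor gene, was 7657 in eosinophils and 199947 in mast cells, and Hrh4, a histamine receptor gene, was 99.5 and 719.5. In both genes eosinophils held the second level of the 5 cell types. Of the 6 genes with a row on the surface marker list, 3 were eosinophil-high (50%, against 2.98% of all genes), namely Ccr3, Emr4 and Alox15. Alox15 is an enzyme and not a surface protein.

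Summed markers of macrophages, neutrophils, mast cells, dendritic cells and lymphocytes were far lower in eosinophils than in the cell type with most of them, but some single members were not. The values are not divided by transcript length, so a sum leans on its highest members and is a rough description only. Summed over 8 macrophage markers the level was 565 in eosinophils and 202106.5 in macrophages, mostly from Cd68 (547 and 185724.5). Timd4, Gata6 and Marco were at 0 in eosinophils. Summed over 12 neutrophil markers the level was 4190.5 in eosinophils and 506356 in neutrophils. Retnlg (1497) and Cxcr2 (1265) made up most of the eosinophil sum, while Mpo, the neutrophil peroxidase gene, was 149 in eosinophils and 22826 in neutrophils. Ly6g was an exception, at 188.5 in eosinophils and 161.5 in neutrophils. The 9 mast cell markers summed to 5969 in eosinophils and 478585 in mast cells, with the mast cell protease gene Tpsab1 at 0. B cell markers summed to 80 in eosinophils and 7340.5 in neutrophils, and T cell markers to 184 in eosinophils and 19320.5 in sDCs. Dendritic cell markers summed to 1156 in eosinophils and 205756 in sDCs, and NK cell markers to 16 and 2052.5 in the same order. The dendritic cell sums came mostly from Ccr7 in sDCs, at the ceiling of 185338, and from Itgax in eosinophils (1039.5). Itgax itself was highest in macrophages, at 13861 against 4075.5 in sDCs. The erythroid markers summed to 951.5 in eosinophils, of which Hbb-b2 gave 798, and to 10237.5 in neutrophils. The megakaryocyte and platelet markers summed to 13430 in eosinophils, mostly from the integrin gene Itga2b (9501.5), and to 4306.5 in neutrophils and 51705.5 in mast cells, and the basophil markers to 1683 in eosinophils and 18993 in mast cells.

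**Figure D1:**
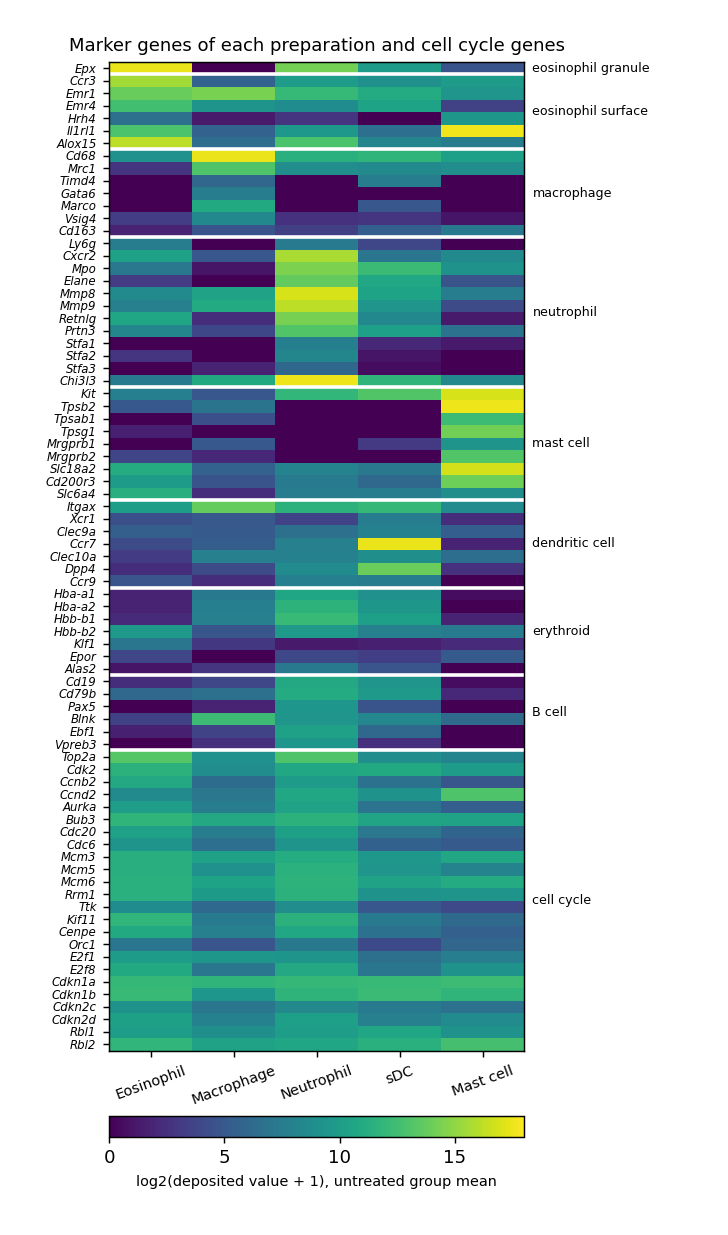
Heat map of log2(value + 1) in the 5 untreated groups for marker genes of each cell type and for cell cycle genes (rows, grouped by list; 1 deposited mean of 2 samples per cell). Most markers of macrophages, neutrophils, mast cells and dendritic cells peak in their own columns (Ly6g, Slc6a4 and Cd163 are among those that do not), while the cell cycle genes have similar colours in eosinophils and neutrophils.

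Eosinophils had about as many genes 2-fold above all other cell types as neutrophils had, and fewer than the other 3. The 193 genes were 2.98% of those compared, against 3.18% (206 genes) in neutrophils, 6.72% (435) in mast cells, 8.33% (539) in sDCs and 9.07% (587) in macrophages, each counted in the same way. The 368 eosinophil-low genes were 5.69%, against 1.61% (104) in neutrophils, 6.34% (410) in mast cells, 5.73% (371) in macrophages and 3.57% (231) in sDCs. Eosinophils had the highest value of the 5 in 17.6% of genes and the lowest in 17.4%, so few genes that peaked in eosinophils did so by 2-fold. At a 4-fold limit 63 genes were eosinophil-high and 187 eosinophil-low, and at a 16-fold limit 14 and 27. Just inside the 2-fold limit lay Ccdc69, H2afv and Tbc1d22b (each 1.01), and just outside it Ndufa6 (1.00), Manf (0.99) and Adck1 (0.99).

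Neutrophils were the cell type closest to eosinophils. Over the 6470 genes the Pearson correlation of the log2 values with eosinophils was 0.886 for neutrophils, 0.798 for mast cells, 0.722 for sDCs and 0.692 for macrophages, a description across genes that share one normalisation. Eosinophils and neutrophils were within 2-fold of each other in 71.3% of genes, and eosinophils and macrophages in 53.3%. For 107 of the 193 eosinophil-high genes (55.4%) neutrophils had the next level, whereas they had the highest level of the other 4 in 21.1% of all genes. Without the neutrophils in the comparison 487 genes were eosinophil-high and 581 eosinophil-low, and without the mast cells 327 and 591.

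**Figure D2:**
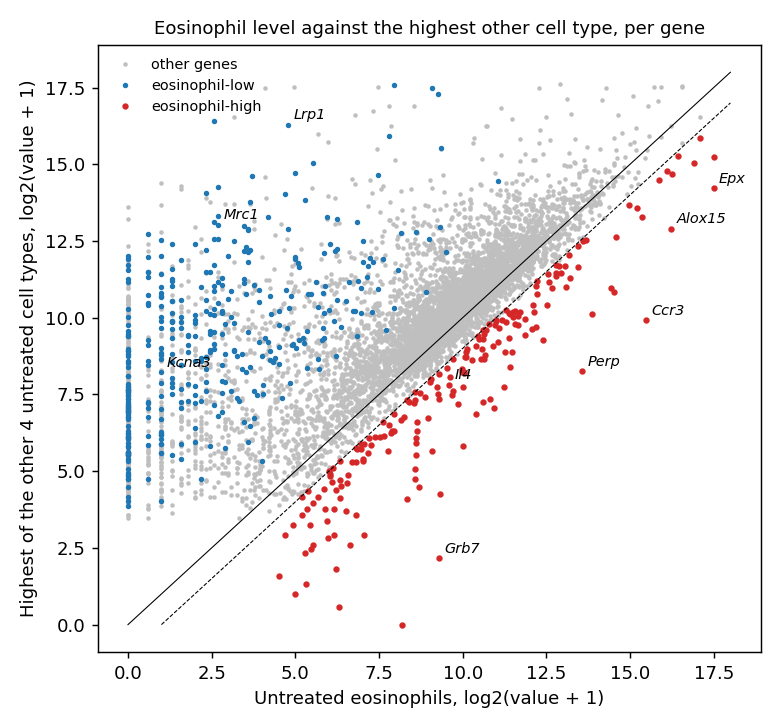
Each point is 1 of 6470 genes, with log2(value + 1) in untreated eosinophils on the horizontal axis and the highest of the other 4 untreated cell types on the vertical axis; the solid line marks equality and the dashed line a difference of 1. The 193 eosinophil-high genes (red) lie on or below the dashed line, with Grb7, Perp and Ccr3 among those furthest from it (Miox, at 0 in the other 4, is the lowest red point), and the 368 eosinophil-low genes (blue) lie above the solid line.

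The 25 eosinophil-high genes with the largest lead and an eosinophil value of at least 100 include few with a textbook role in eosinophils. Only 1 of 17 listed granule protein genes and 6 of 15 listed surface marker genes had a row in the table. Textbook genes without a row could not appear among the 25, so nothing is read from their absence. Miox, which encodes the inositol-degrading enzyme of kidney, was 291 in eosinophils and listed at 0 in each of the other 4 cell types. Grb7, an adaptor of receptor tyrosine kinases, was 630.5 in eosinophils, 3.5 in sDCs and 0 in macrophages, neutrophils and mast cells. Perp, a membrane protein gene induced by p53, was 12206.5 in eosinophils, 304 in neutrophils, 273 in mast cells, 69.5 in sDCs and 19.5 in macrophages. Grb7, Perp and Ccr3 were each more than 5 log2 units above every other cell type.

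Other leading genes encode surface proteins or a secreted peptide. Vcam1, an adhesion molecule best known from activated endothelium, was 14784.5 in eosinophils, 892 in neutrophils, 0.5 in mast cells, 1119.5 in sDCs and 118.5 in macrophages. Adra2a, the alpha-2A adrenergic receptor gene, was 1822 in eosinophils, 163.5 in neutrophils and at most 4.5 in the other 3. Unc5c, a netrin receptor gene, was 381 in eosinophils and at most 33 elsewhere. Eosinophils were clear of every other cell type in all 3 genes, by 3.72, 3.47 and 3.49 log2 units. Adm2, which encodes the peptide intermedin, was 321 in eosinophils and at most 16 elsewhere.

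Some encode a protease inhibitor, a transporter or enzymes. Serpinb2, which encodes plasminogen activator inhibitor 2, was 23522.5 in eosinophils, 1816.5 in neutrophils, 297.5 in mast cells, 284 in sDCs and 494 in macrophages. Abcc2, an organic anion export pump of liver and kidney, was 1020 in eosinophils, 55 in sDCs, 44 in neutrophils and listed at 0 in macrophages. Ldhc, the testis form of lactate dehydrogenase, was 1976 in eosinophils and 131.5 in neutrophils. Eosinophils thus held the top level of all 3, and the lowest of the 3 differences was 3.69. Chpt1, a choline phosphotransferase gene, was 5407.5 in eosinophils and between 344.5 and 622.5 in the other 4, which were all close to each other, but its locus overlaps Sycp3 on the opposite strand. Hyal3, of the hyaluronidase family, was 539 in eosinophils and at most 49 elsewhere, and it overlaps Hyal1 and Nat6 on the same strand, so tags could be split among them. Mylk3, a myosin light chain kinase gene of heart, was 1570 in eosinophils and 151 in mast cells, and Cyb561, a cytochrome b561 gene, was 389.5 in eosinophils and at most 45 elsewhere.

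Some of the leading genes are best known from other tissues. Klf1, the erythroid transcription factor gene, was 131 in eosinophils and at most 6.5 elsewhere. Of the globin genes, Hba-a1 and Hba-a2 were at 2.5 each in eosinophils, whereas Hbb-b2 was 798 in eosinophils and 804 in neutrophils. Mkx, a homeobox gene of tendon, was 413 in eosinophils and 21.5 in neutrophils. Mapt, which encodes tau, was 381 in eosinophils and 26 in neutrophils, and Cnga1, a photoreceptor channel gene, was 111 in eosinophils and at most 11 elsewhere. Klf1, Mkx, Mapt and Cnga1 were each low in every other cell type.

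**Figure D3:**
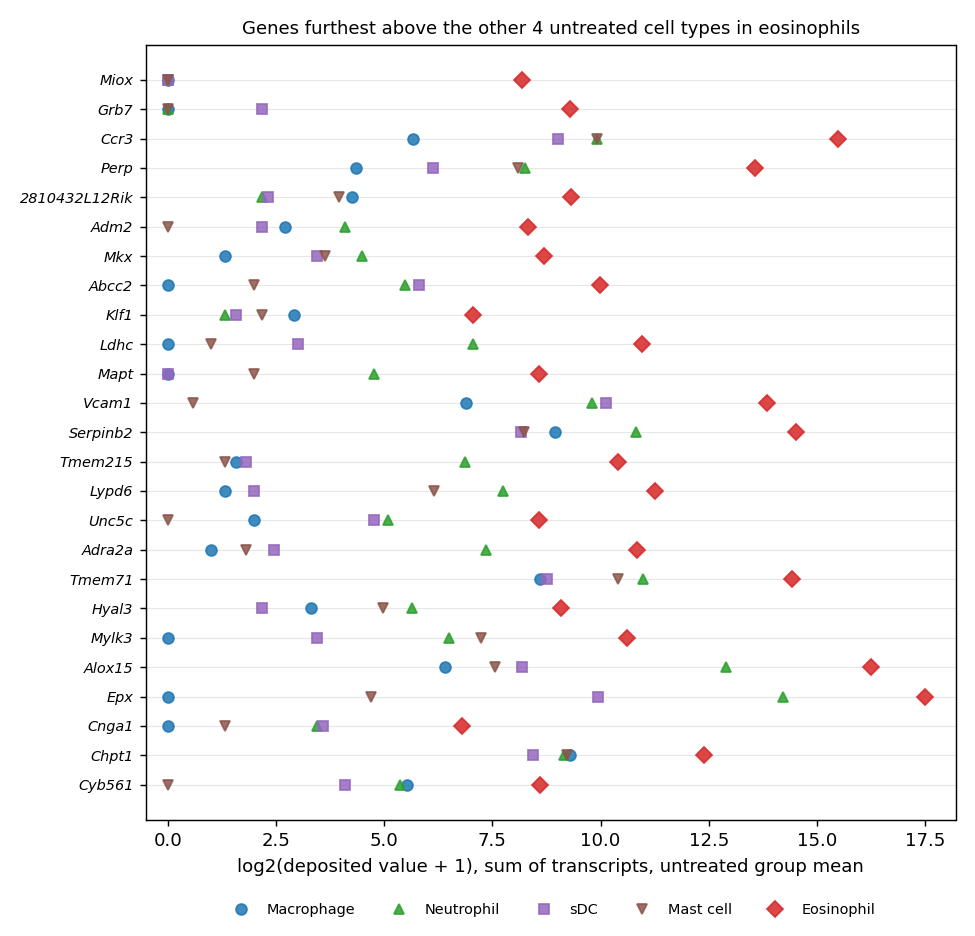
Values of the 25 leading eosinophil-high genes on a log2(value + 1) axis in the 5 untreated groups, ordered by the distance to the next cell type; each symbol is 1 deposited group mean. Eosinophils (red diamonds) stand to the right in every row and neutrophils (green triangles) are the next symbol in 15 of the 25.

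The choice of genes by their lead keeps the level of every other cell type at a small share of that of eosinophils, so the shares are given as a description. In the 25 leading genes the neutrophil value was 0% to 10.5% of the eosinophil value with a median of 6.82%, and in 17 of the 25 it was between 5% and 15%. It was 10.3% for Epx and 9.88% for Alox15, but 2.11% for Ccr3 and 2.49% for Perp, and Miox and Grb7 were at 0 in neutrophils. Over all 193 eosinophil-high genes the median level relative to eosinophils was 25.9% in neutrophils and 6.91% in macrophages, with mast cells and sDCs in between. Whether eosinophils within the neutrophil preparation hold part of that level was not tested.

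Of 26 cytokine and chemokine genes compared, 3 were eosinophil-high (11.5%, against 2.98% of all genes) and 7 eosinophil-low (26.9%, against 5.69%). Il4, the defining type 2 cytokine gene, was 775.5 in eosinophils, 224.5 in mast cells, 80 in neutrophils, 9.5 in sDCs and 0 in macrophages. Il13, its close relative, was 130 in eosinophils, 41.5 in neutrophils, 37 in mast cells, 1.5 in sDCs and 0 in macrophages. Csf1, which encodes the macrophage growth factor M-CSF, was 6166.5 in eosinophils and 2306 in mast cells. These 3 genes led the next cell type by 1.78, 1.62 and 1.42 log2 units. The 7 eosinophil-low genes were Il10, Il12a, Il18, Lta, Tnfsf13, Tgfb3 and Cxcl16. Cxcl16 was 12 in eosinophils, 96 in neutrophils and 25019 in sDCs, and Il18 was 0.5 in eosinophils and 133.5 in macrophages.

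Among 26 cytokine receptor genes 1 was eosinophil-high (3.85%, near the 2.98% of all genes) and none was eosinophil-low (5.69% of all genes). Csf2rb, the common beta chain of the receptors for IL-3, IL-5 and GM-CSF, was 140192 in eosinophils, 59764.5 in mast cells, 48569 in sDCs, 26721 in neutrophils and 9687.5 in macrophages. Its mouse-specific relative Csf2rb2 was instead highest in mast cells, at 151676 against 34733.5 in eosinophils, and the 2 near-identical genes could share tags. Il10ra, the ligand-binding chain of the IL-10 receptor, was 950.5 in eosinophils, the lowest of the 5 cell types, with 1843.5 in macrophages as the next and 10905.5 in mast cells as the highest. That gap to macrophages is under 2-fold. Il13ra1 was 54 in eosinophils and 3468 in neutrophils, while mast cells were lower still at 7.5.

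Of 20 chemoattractant receptor genes Ccr3 alone was eosinophil-high (5%, against 2.98% of all genes) and 3 were eosinophil-low (15%, against 5.69%). Ccr1, a chemokine receptor gene of several leukocytes, was 16886 in eosinophils and 27739.5 in neutrophils. The 3 were Ccr2, Cx3cr1 and S1pr1, with Cx3cr1 at 5 in eosinophils, 66.5 in neutrophils and 1241.5 in mast cells. In the eicosanoid pathway 1 of 17 genes, Alox15, was eosinophil-high (5.88%) and 1 was eosinophil-low. Alox5, the 5-lipoxygenase gene of leukotriene synthesis, was 25425 in eosinophils, 14759.5 in neutrophils and 100482 in mast cells, with both macrophages and sDCs under 300. The eosinophil-low gene was Hpgd, which inactivates prostaglandins, at 6.

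None of 21 pattern recognition receptor genes was eosinophil-high (2.98% of all genes) and 3 were eosinophil-low (14.3%, against 5.69%), and the median difference from the mean of the other 4 was -1.75 on the log2 scale, against -0.07 over all genes. The summed level of the list, which leans on its highest members, was 9546.5 in eosinophils, 7486.5 in mast cells and 28010.5 or more in the other 3. The 3 eosinophil-low genes were Tlr3, Tlr8 and Ifih1, which encode RNA sensors. Ifih1 was only just past the limit, at 124.5 in eosinophils and 250.5 in mast cells. Ddx58, which also encodes an RNA sensor, was 1162.5 in eosinophils, 709 in sDCs and 1406 in mast cells. Tlr8 was 5 in eosinophils, 49 in mast cells, 198.5 in sDCs, 257.5 in neutrophils and 3352 in macrophages. Clec7a, the beta-glucan receptor gene, was 647.5 in eosinophils, close to the 762 of mast cells and far under the 45878 of neutrophils.

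Of 30 lineage transcription factor genes 1 was eosinophil-high (3.33%, near the 2.98% of all genes), 5 were eosinophil-low (16.7%, against 5.69%) and 17 were within 2-fold of the highest other cell type (56.7%, against 51.9%). Ikzf3, a lymphoid zinc finger factor gene also called Aiolos, was 2489.5 in eosinophils, 935.5 in neutrophils and 567 in sDCs, with 26 or less in macrophages and mast cells. Gata1 was 4309 in eosinophils and 2757 in mast cells, with 498 in neutrophils, 89 in sDCs and 1 in macrophages. Eosinophils and mast cells thus shared Gata1 at levels 0.64 log2 units apart. Ikzf2 was 8426 and 8410.5 in the same cell types and at most 362 in the other 3. The eosinophil-low factors included Gata3, Klf4, Bcl6 and Tfec. Klf4, a monocyte and epithelial factor gene, was 1.5 in eosinophils and between 28 and 641 in the other 4.

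Cell cycle genes were close to their neutrophil levels. None of its 24 genes was eosinophil-high or eosinophil-low, where 2.98% and 5.69% of all genes were, and 22 of 24 were within 2-fold of the neutrophil value (91.7%, against 71.3% of all genes). Relative to the mean of the other 4 the median of the list was 1.60. Top2a, topoisomerase of dividing cells, was 9978.5 in eosinophils, 8354.5 in neutrophils, 284 in mast cells, 453 in sDCs and 548.5 in macrophages. Kif11, a spindle motor gene, was 3676 and 3060 in eosinophils and neutrophils and at most 166 in the other 3. In both genes eosinophils and neutrophils were far above the other 3 cell types, whereas Ccnd2, a G1 cyclin gene, went the other way with 393 in eosinophils and 8622 in mast cells.

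The other lists gave between 0 and 2 eosinophil-high genes each, to be read against 2.98% eosinophil-high and 5.69% eosinophil-low among all genes. In the integrin and adhesion list (18 genes) it was Itga7, with 29.5 in eosinophils and 8.5 in mast cells, both low values. In the list of inhibitory and Fc receptors (13 genes) it was Cd200r2, at 81.5 against 22 in neutrophils, with Clec4a1, Fcgrt and Havcr2 eosinophil-low. In the protease and inhibitor list (28 genes) Serpinb2 was joined by Prss57, a neutrophil serine protease gene, at 2031.5 in eosinophils, 976 in neutrophils and 0 in macrophages. In that list 6 genes were eosinophil-low, among them Ctsl, a lysosomal cathepsin gene, at 221.5 in eosinophils and 62505 in macrophages. Slc6a4, the serotonin transporter gene and a mast cell marker here (as Klf1 is an erythroid one), was eosinophil-high at 2461 in eosinophils, 470.5 in mast cells, 200.5 in neutrophils, 200 in sDCs and 4 in macrophages. None of 19 Bcl2 family and death genes was eosinophil-high, and Casp12 was eosinophil-low. Among 6 genes of the NADPH oxidase and peroxidases Epx alone was eosinophil-high, while Cybb, the catalytic oxidase subunit, was 18515 in eosinophils and 140085 in macrophages. The list of alternative activation genes gave none of 11, with Mrc1 and Clec10a eosinophil-low and Arg1 at 2.5 in eosinophils against 3358.5 in macrophages.

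A further 10 genes lay far above the mean of the other 4 but were shared with 1 cell type. Cyp11a1, which starts steroid synthesis from cholesterol, was 19873.5 in eosinophils and at the ceiling of 185338 in mast cells, with at most 513 in the other 3. Nlrp12, an intracellular receptor gene of granulocytes, was 1127.5 in eosinophils, 1490 in neutrophils, 23 in sDCs and 0 in macrophages and mast cells. Slco4c1, an organic anion transporter gene, was 477.5 in eosinophils, 589 in neutrophils and at most 34 elsewhere. Crtac1 and Ipcef1 had the same shape, with 105.5 and 130.5 for Crtac1 and 4380 and 4911 for Ipcef1 in eosinophils and neutrophils. Cacna2d2, a calcium channel subunit gene, and Baiap3 were within 1 log2 unit of the neutrophils too, at 0.81 and 0.79. Hist1h2ap was 4104 and 4726 in eosinophils and neutrophils, and its values nearly repeat those of Hist1h2ao, a near-identical histone gene that can share its tags. Apart from Gata1 and Cyp11a1, which were shared with mast cells, neutrophils were the partner.

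The eosinophil-low genes were read from those with at least 100 in all 4 other cell types, 89 of the 368. Kcna3, the voltage-gated potassium channel Kv1.3, was 1 in eosinophils, 126.5 in neutrophils, 300 in mast cells, 154 in sDCs and 120 in macrophages. Mrc1, the macrophage mannose receptor gene, was 5.5 in eosinophils, 454.5 in neutrophils, 453.5 in mast cells, 365 in sDCs and 8357.5 in macrophages. Lrp1, a scavenger and signalling receptor gene, was 26.5 in eosinophils, 2040.5 in neutrophils, 1023.5 in mast cells, 5123 in sDCs and 79934 in macrophages. In the 3 genes the eosinophils were 5.92, 5.82 and 5.22 log2 units under the lowest of the others.

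The other 12 genes at this end included receptors and kinases. Myof, a membrane repair protein gene, was 5.5 in eosinophils and at least 288 elsewhere, and Plxnb2, a semaphorin receptor gene, was 5 in eosinophils and between 126.5 and 8955 elsewhere. The kinase genes Src, Stk39 and Dapk1 were 10.5, 4 and 31 in eosinophils, and the lowest values in the other cell types were 233.5, 126.5 and 711.5. Sdc4, a heparan sulphate proteoglycan gene, was 12.5 in eosinophils and at least 221 elsewhere. Trim30d, of a family induced by interferon, was 5 in eosinophils and between 336.5 and 736 elsewhere, and related Trim30 genes can share its tags. Of the 15 lowest genes 9 were under 10 in eosinophils, and 7 were highest in macrophages. These values near 0 depend on the number added before the log: with 10 in place of 1, 203 genes were eosinophil-low.

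**Figure D4:**
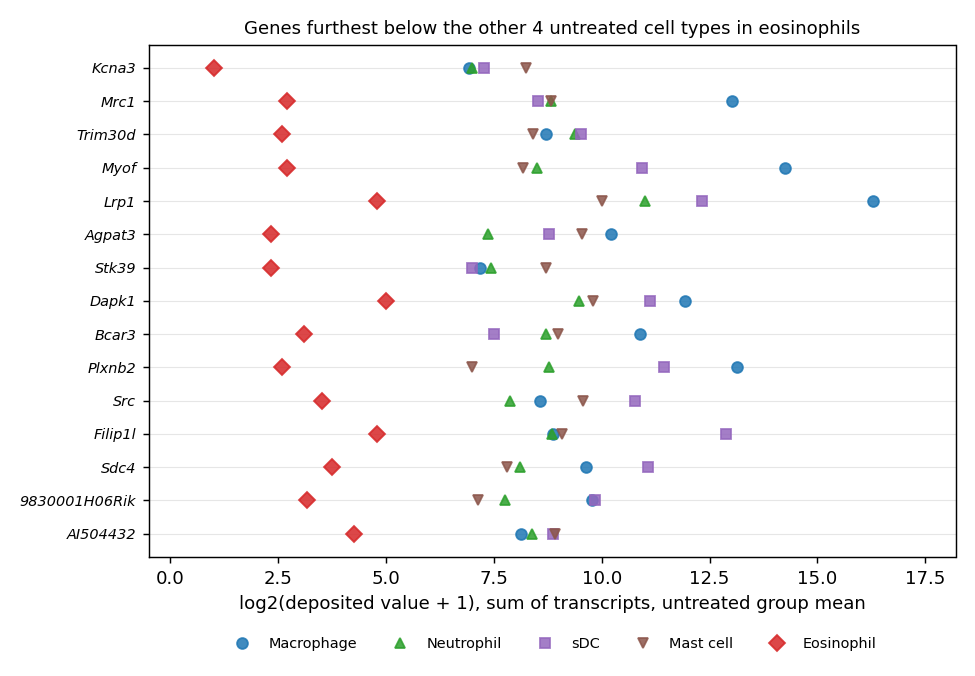
Values of the 15 genes furthest below the other 4 untreated cell types among genes with at least 100 in all of them, on a log2(value + 1) axis; each symbol is 1 deposited group mean. Eosinophils (red diamonds) stand to the left in every row, and the other 4 cell types overlap in order from gene to gene.

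The values of the LPS groups did not enter the calls. These groups hold the same cell types, prepared in the same way and sharing the normalisation, so genes called again are a description and not an independent check. The shares over all genes given beside them include the called genes. Of the 193 eosinophil-high genes, 151 (78.2%) were again at least 2-fold above the highest of the other 4 cell types after LPS, against 4.14% of all genes, and 182 were again highest in eosinophils. Of the 368 eosinophil-low genes, 258 (70.1%) were again at least 2-fold below the lowest, against 6.74%. All 25 leading genes and all 15 lowest genes were called again. In the wider comparison with the 16 groups of other cell types, which include IL-10 and LPS treatment alone or together, 139 of the 193 genes were at least 2-fold above the highest. No gene outside the 193 could meet this limit, since the 4 untreated groups are among the 16, so the 139 genes are also the 2.15% of all genes that met it and nothing is read from that share.

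Untreated and LPS-treated eosinophils were then compared over these genes. The median difference over the 193 was -0.09 on the log2 scale. With LPS, 5 were at least 2-fold higher (2.59%, against 3.31% of all genes) and 2 at least 2-fold lower (1.04%, against 2.6%). These counts are too small to read a difference from. Serpinb2 was 23522.5 without and 54549 with LPS, Slc6a4 was 2461 and 7881.5, and Il13 was 130 and 390.5. Ccr3 was 45989.5 and 36018 and Epx stayed at the ceiling. Il13 lost its lead over the other LPS groups (0.01), whereas Il4 kept a lead of 1.70. Vcam1 was higher in the LPS groups of other cell types as well, at 4372.5 in neutrophils and 2750.5 in macrophages, and its lead was 2.38 there against 3.72 without LPS.

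**Figure D5:**
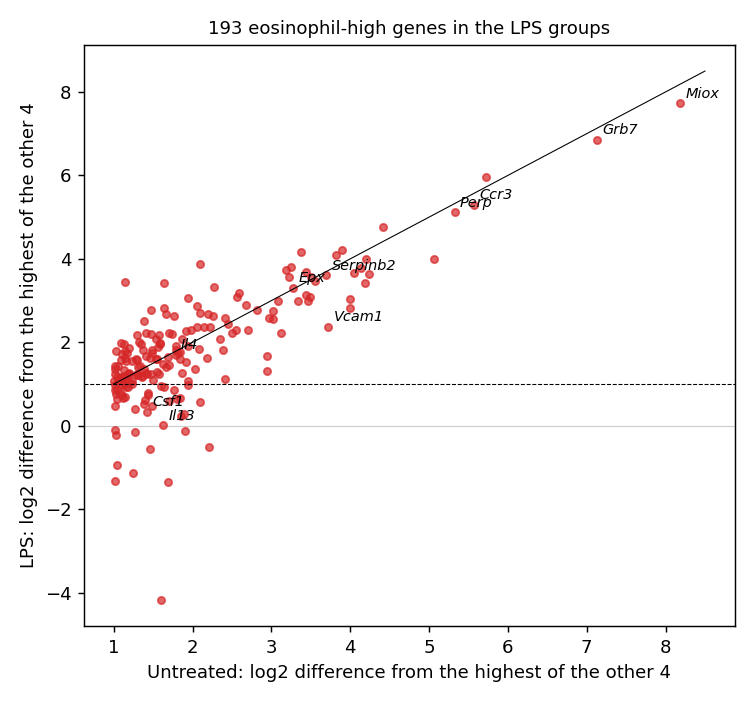
For each of the 193 eosinophil-high genes, the log2 difference between eosinophils and the highest of the other 4 cell types in the untreated groups (horizontal) and in the LPS groups (vertical); the solid line marks equality and the dashed line a difference of 1. The 151 genes on or above the dashed line were 2-fold above again, and Miox, Grb7, Perp and Ccr3 lie at the far right in both.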

How the data were processed

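RNA was sequenced from cells of C57Bl6cJ mice. Per the submitters' processing notes, reads were aligned to mm9 with RSEM 1.2.1 and Bowtie 0.12.9, and the tag counts were corrected for GC content (EDASeq). The deposited table holds 18 columns, each the authors' mean of the 2 replicates of a group, in a unit treated here as a score: the values are multiples of 0.5 and share a ceiling of 185338, so they are not raw counts, and neither the depth of a sample nor a counting interval can be derived from them. A filter on low transcripts is not stated. CD4 T cells were not analysed here.

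Transcripts were summed per gene name. One broken line and 22 lines without a gene name (0.129%) were left out. Genes with a value of 10 or more in any of the 5 untreated groups were kept, and log2(value + 1) in eosinophils was compared with the highest, the lowest and the mean of the other 4. A difference of 2-fold was called. A count model and replicate tests need values per sample and were not run, and p-values are therefore absent. Positions are those of GENCODE on NCBIM37, and promoters those of RefSeq on GRCm38.p6. The genes named are the 25 with the largest lead and an eosinophil value of at least 100, the 15 furthest below with all others at 100 or more, the 10 furthest above the mean that were not eosinophil-high, members of 25 lists (674 names, of which 305 were compared), and the 3 nearest each side of the 2-fold limit. The genes and lists were chosen with earlier results of these data known. Alternatives changed the added number, the minimum, the transcript summary, the centring, the cell types compared, the reference and the fold. Python 3.11.15, pandas 2.3.3, numpy 2.4.6 and matplotlib 3.10.9 were used.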

Additional observations from a re-analysis of the deposited data

How the results depend on the processing

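Of the settings tried, none turned the direction of any of the 25 leading or 15 lowest genes, over 440 values under 11 settings. Only the highest transcript and the centring could have turned one. Under the other settings the direction was fixed by the choice of the genes, so nothing is read from it there. Of the 440 values, 74 moved by more than 1.5 times. With 0.5 in place of the added 1, a minimum of 50 or none, the highest transcript of each gene, columns centred on their medians, or without macrophages or sDCs, the counts stayed within 1.5 times of 193 eosinophil-high and 368 eosinophil-low genes, and so did the 15 listed genes that were eosinophil-high and the share called again with LPS. With 10 added, 203 genes were eosinophil-low. Without neutrophils, 487 genes were eosinophil-high, 581 eosinophil-low and 44 listed genes eosinophil-high, and the median lead of the 25 leading genes was 5.09 against 3.69. Without mast cells the 3 counts were 327, 591 and 32. Fewer cell types to exceed give more calls by construction. Against the mean of the other 4 they were 961, 1475 and 93, with a median of 6.67. At 4-fold 63 genes were eosinophil-high and 187 eosinophil-low.

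No paired analysis was possible because the table holds 1 mean per group and no result comes from a test, and for the same reason leaving out each replicate was not run. The spread between the 2 samples of a group is unknown here, so differences near the 2-fold limit carry no error. The ceiling of the table hides how far Epx exceeds its neighbours, and values under about 10 rest on few tags.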

Other observations

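A set of gene families induced by interferon was assembled after the values were seen and is given as a description only. Of its 38 genes compared, none was eosinophil-high (2.98% of all genes) and 13 were eosinophil-low (34.2%, against 5.69% of all genes). In 21 of them eosinophils had the lowest value of the 5 cell types, which held for 17.4% of all genes. The median difference of the 38 from the mean of the other 4 was -1.98 on the log2 scale, against -0.07 over all genes. Against neutrophils alone it was -1.08. Within 2-fold of the neutrophil value were 19 of the 38, where 71.3% of all genes were. Gbp2, a guanylate-binding protein gene, was 25 in eosinophils, 78 in neutrophils, 439.5 in mast cells, 1164.5 in macrophages and 16587 in sDCs. Oasl1 was 2.5 in eosinophils and between 20.5 and 671.5 elsewhere, and Xaf1 was 8.5 in eosinophils and between 31.5 and 434 elsewhere. Some of the 13 eosinophil-low calls rest on values near 0 and so depend on the number added before the log. Ifi44 was 0 in eosinophils and 2 in mast cells, and Tgtp1 was 2 in eosinophils and 5.5 in macrophages. Ifih1 was only just past the 2-fold limit, at 124.5 in eosinophils and 250.5 in mast cells. Members at ordinary levels were present too: Ddx58, which encodes the RNA sensor RIG-I, was 1162.5 in eosinophils and between 709 and 1406 in the other 4, and Trim30b was 656.5 in eosinophils and 1225.5 in neutrophils with at most 256.5 elsewhere.

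Within the 25 leading genes, and within the 15 lowest, 1 pair each lay less than 50000 bases apart, on the same strand; this was seen after their values were known. Adm2 and Miox, both among the 25 leading genes, lie on chromosome 15 with 9669 bases between them (NCBIM37). Kcna3 and AI504432, both among the 15 lowest, lie on chromosome 3 with 1374 bases between them.

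Of 113 solute carrier (Slc) genes, also grouped after the values were seen, 5 were eosinophil-high and 5 eosinophil-low (4.42% each, near the 2.98% and 5.69% of all genes). Besides Slc6a4, Slc39a8, a zinc and manganese importer gene, was 1022.5 in eosinophils and at most 213 elsewhere, and Slc16a9 was 390.5 in eosinophils and at most 59 elsewhere.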
